A study of Mus musculus with 19 samples.

Results

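The 9 genes described here make up the aryl hydrocarbon receptor axis: the receptor Ahr, its partner Arnt, the receptor's repressor Ahrr, the cytochrome P450 genes Cyp1a1, Cyp1a2 and Cyp1b1, and Tiparp, Nqo1 and Ephx1. They were chosen by name, as the genes that sense and metabolize the carcinogen used to start the tumors, and their rows were taken from an RNA-seq table of 48795 Ensembl genes. The table covered 19 primary p53/MCA sarcomas, 11 from Rag2-/- mice and 8 from their Rag2+/- littermates. Mice of both genotypes were 6 to 10 weeks old when the gastrocnemius, a muscle of the hind leg, received an adenovirus that expresses Cas9 together with a Trp53 guide RNA, and then 300 µg of 3-methylcholanthrene (MCA) in sesame oil. Rag2-/- mice cannot rearrange antigen receptor genes and therefore lack T and B lymphocytes, whereas Rag2+/- mice keep 1 working copy and served as the immunocompetent group. Tumors were collected untreated at 70 to 150 mm3, and each library is 1 tumor. Since tumors of both genotypes had been exposed to the virus and to MCA, the data hold no tumor without MCA, and whether a level was raised by the carcinogen was not tested.

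The aryl hydrocarbon receptor is a transcription factor that waits in the cytoplasm bound to a heat shock protein chaperone. Planar aromatic hydrocarbons such as MCA bind it, after which it enters the nucleus, pairs with ARNT and binds a short DNA element, the xenobiotic response element, near genes such as Cyp1a1 and Cyp1b1. The enzymes of those genes oxidize the hydrocarbon, microsomal epoxide hydrolase (Ephx1) turns the resulting epoxides into diols, and a second oxidation can give products that bind DNA, which is how MCA acts as a mutagen. AHRR and TIPARP are themselves induced by the receptor and restrain it.

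The core of the xenobiotic response element, GCGTG, was searched on both strands in a window from 250 bases before to 50 bases after the RefSeq start of each gene (build GRCm38.p6). RefSeq promoters matched 8 of the 9 genes, all but Ahr. The core was found in 5 of the 8, namely Arnt, Ahrr, Cyp1a1, Cyp1b1 and Tiparp, and in 32.4% of all 32851 promoters of the same length. The window of Ahrr held 3 copies, and the other 4 windows held 1 each. The longer form TNGCGTG, which contains the core, was found only for Ahrr among the 8, against 5.07% of all promoters. TGACNNNGC, the antioxidant response element through which NRF2 acts, was found only for Arnt, against 12.4% of all promoters, and neither Nqo1 nor Ephx1 held any of the 3 motifs in this window. The 250 bases before the start are printed for Ahrr, Cyp1a1 and Cyp1b1, the genes whose levels are compared most closely here, with the core in capitals (CACGC is the core read on the opposite strand). They lie on the minus strand at chr13:74292332-74292581, on the plus strand at chr9:57697363-57697612 and on the minus strand at chr17:79715062-79715311, and are written 5′ to 3′ along each gene.
Ahrr: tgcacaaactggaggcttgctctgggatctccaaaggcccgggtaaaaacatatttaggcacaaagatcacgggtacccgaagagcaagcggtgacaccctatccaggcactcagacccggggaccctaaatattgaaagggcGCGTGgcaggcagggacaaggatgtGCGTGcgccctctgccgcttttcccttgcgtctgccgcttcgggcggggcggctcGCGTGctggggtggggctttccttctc
Cyp1a1: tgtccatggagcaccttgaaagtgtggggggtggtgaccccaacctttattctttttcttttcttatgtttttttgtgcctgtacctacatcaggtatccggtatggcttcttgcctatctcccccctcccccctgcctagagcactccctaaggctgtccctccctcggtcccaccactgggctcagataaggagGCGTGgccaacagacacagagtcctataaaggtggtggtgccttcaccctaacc
Cyp1b1: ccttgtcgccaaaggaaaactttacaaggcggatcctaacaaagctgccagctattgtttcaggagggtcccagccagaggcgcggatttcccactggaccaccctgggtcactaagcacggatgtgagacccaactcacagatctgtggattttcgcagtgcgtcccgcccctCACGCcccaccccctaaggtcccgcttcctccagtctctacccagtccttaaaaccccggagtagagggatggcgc

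Values are log2 of upper-quartile normalized FPKM (fragments scaled to gene length and to library size) with 0.1 added, so that −3.32 is the lowest value a gene can take. Because FPKM is per length, levels of different genes can be compared on this scale. Depth was estimated from the spacing of low values at 24.7 to 33.7 M fragments, M standing for a factor of 1e+06, in 18 tumors and at 5.26 M in the Rag2-/- tumor S41. Fibroblast and mesenchyme markers such as Col1a1 and Vim were abundant, with a list mean of 7.64 ± 0.73 (SD, n = 19), whereas hepatocyte markers averaged −2.59 and epithelial markers −1.40. The T cell list ran from −2.79 to −1.80 in Rag2-/- tumors and from 0.26 to 2.55 in Rag2+/- tumors, without overlap. Rag2 itself was above the lowest value in all 19 tumors, at a mean of −0.34 ± 0.74 in the 11 Rag2-/- and −1.31 ± 0.70 in the 8 Rag2+/- tumors, and whether those reads come from the part removed in the mutant cannot be told from gene values. The muscle in which the tumors grew was also present. The skeletal muscle list averaged 7.80 ± 1.98 in Rag2-/- and 10.06 ± 2.40 in Rag2+/- tumors, and 4 tumors (S51, S56, S59 and S60) had a proliferation list mean below 2 while the other 15 were above it. Of those 4, S51, S59 and S60 carry the 3 highest animal numbers of the series and S56 the lowest; the labels do not say what the numbers follow.

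Ahr, the receptor (GRCm38 chr12:35497974-35535038, minus strand), was expressed at a low and even level. It ran from 0.78 through a median of 1.41 to 2.0 in Rag2-/- tumors and from 0.71 through 1.08 to 1.85 in Rag2+/- tumors, and the genotypes overlapped over most of their range. The highest value was in S42 and the lowest in S56. Arnt, the partner that the receptor needs for DNA binding (chr3:95434388-95497240, plus strand), was the most abundant of the 9 genes and the steadiest of the 8 with values above the lowest. Its values ran from 4.02 through 4.47 to 4.67 in Rag2-/- tumors and from 4.22 through 4.39 to 4.58 in Rag2+/- tumors. Its SD over the 19 tumors was 0.17, and only 1.19% of the 12826 genes tested had a smaller one. Arnt exceeded Ahr in 19 of 19 tumors, by a mean log2 difference of 3.04 ± 0.46 (SD).

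Ahrr, which competes with the receptor for ARNT (chr13:74211118-74292331, minus strand), varied far more than either. In Rag2-/- tumors it ran from −1.86 in S41 through a median of 0.54 to 1.85 in S42, and in Rag2+/- tumors from −2.80 in S53 through 0.48 to 2.05 in S59. Its SD of 1.35 was larger than that of 92.1% of the genes tested, whatever their level. Only 2.03% of the genes tested had a lower mean than Ahrr, and spread among genes of like level was not compared. Ahrr was below Ahr in 17 of 19 tumors. Tiparp, an ADP-ribosyltransferase that modifies the receptor (chr3:65528410-65555518, plus strand), was high throughout, with values from 3.55 through 4.07 to 5.01 in Rag2-/- tumors and from 3.17 through 3.98 to 4.38 in Rag2+/- tumors. The 2 feedback genes therefore differed both in level and in spread, with Tiparp above Ahrr in 19 of 19 tumors by a mean of 3.85 ± 1.25 (SD). A pseudogene on the opposite strand, 4931440P22Rik, overlaps Tiparp and had a mean of −0.19.

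**Figure D1:**
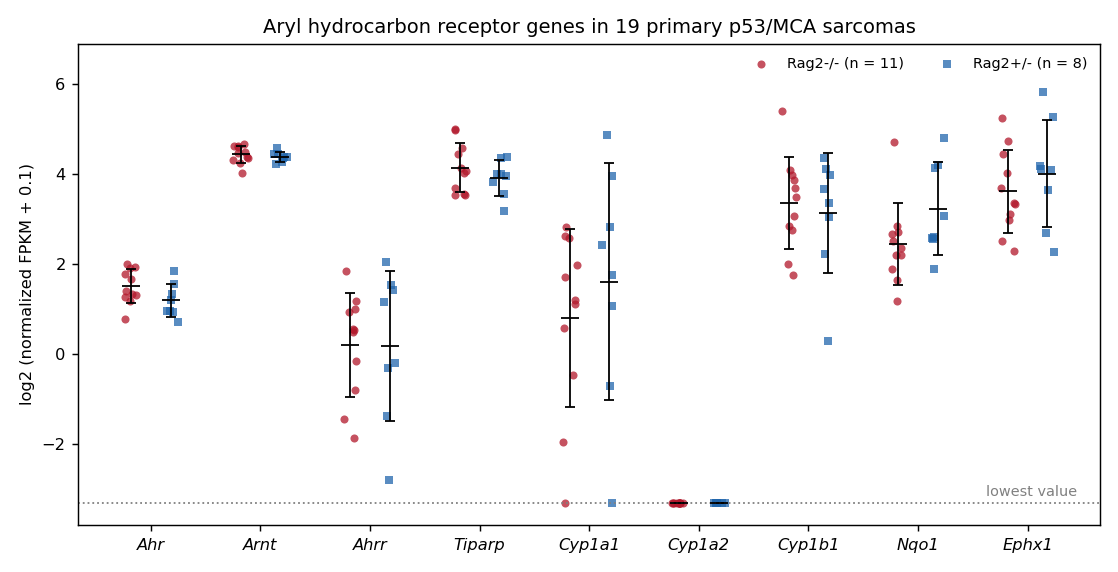
Level of each gene in each tumor, as log2 of normalized FPKM plus 0.1 on the vertical axis; circles are the 11 Rag2-/- and squares the 8 Rag2+/- tumors, and bars give the mean and SD. Arnt values lie between 4.02 and 4.67, Cyp1a1 values spread from −3.32 to 4.88, and Cyp1a2 sits at the lowest value in all 19 tumors.

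Among the 3 genes of the CYP1 family, which carry out the first oxidation of MCA, Cyp1b1 was the highest. Cyp1b1 (chr17:79701537-79715061, minus strand), the family member known from mesenchymal cells, ran from 1.77 in S50 through a median of 3.50 to 5.41 in S42 among Rag2-/- tumors. Among Rag2+/- tumors it ran from 0.29 in S53 through 3.51 to 4.37 in S55. Cyp1a1 (chr9:57687928-57703824, plus strand), the classical readout of receptor activity in liver and epithelia, was at the lowest value in S43 and S53 and reached 4.88 in S56. Its median was 1.20 in Rag2-/- and 2.10 in Rag2+/- tumors, and its highest Rag2-/- value was 2.83, in S46. In terms of normalized FPKM that is a span from 0 to 29.4, and its SD of 2.25 on the log2 scale exceeded that of 98.4% of genes tested. Of all genes tested, 12.6% had a lower mean than Cyp1a1. Cyp1b1 was above Cyp1a1 in 18 of 19 tumors, by a mean log2 difference of 2.12 ± 1.80 (SD). The exception was S56, the tumor with the highest skeletal muscle list mean (13.01), in which Cyp1a1 was higher by 1.84 and Cyp1b1 stood at 3.04.

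Cyp1a2 (chr9:57676937-57683703, minus strand), whose product is made chiefly in the liver, was listed at the lowest value in 19 of 19 tumors. It lies head to head with Cyp1a1, with 4224 bases between the gene bodies as GENCODE annotates them (the RefSeq start of Cyp1a1 used for the promoter lies farther off, inside that body). The pair differed in these tumors even though they are neighbors. Its RefSeq window held no GCGTG.

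The enzymes that act after the CYP1 family were intermediate. Nqo1, a quinone reductase induced by both the receptor and NRF2 (chr8:107388225-107403206, minus strand), ran from 1.18 through 2.36 to 4.72 in Rag2-/- tumors and from 1.90 through 2.84 to 4.81 in Rag2+/- tumors. The 4 highest values, 4.15 to 4.81, belonged to S56, S59, S51 and S60, the same 4 tumors whose proliferation list mean was below 2, and the next was 3.07 in S52. Ephx1 (chr1:180976210-181020904, minus strand) ran from 2.30 through 3.37 to 5.26 in Rag2-/- tumors and from 2.27 through 4.10 to 5.83 in Rag2+/- tumors. Ephx1 exceeded Nqo1 in 17 of 19 tumors.

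Ordered by mean level over the 19 tumors, the genes ran Arnt, Tiparp, Ephx1, Cyp1b1, Nqo1, Ahr, Cyp1a1, Ahrr and Cyp1a2. Most neighbors in that order were separated by less than the SD of their difference within tumors. Arnt was above Tiparp by 0.37 ± 0.48 in 14 of 19 tumors, and Ephx1 above Cyp1b1 by 0.52 ± 1.09 in 13 of 19. The exceptions were Nqo1 over Ahr, at 1.40 ± 1.15 and in 18 of 19 tumors, and Ahrr over Cyp1a2, which was at the lowest value. Individual tumors stood at the ends of several genes at once. S53, a Rag2+/- tumor, was lowest for Ahrr, Cyp1b1 and Ephx1 and shared the lowest Cyp1a1 value with S43, while its Arnt (4.46) and Tiparp (4.0) were mid-range. S42, a Rag2-/- tumor, was highest for Ahr and Cyp1b1 and second highest for Ahrr.

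To ask whether the genes differed in tumors that grew without T and B lymphocytes, Rag2-/- and Rag2+/- tumors were compared with limma. Of the 8 genes that passed the filter on low values, 0 were called between genotypes at an adjusted p under 0.05, and the unadjusted p of each was above 0.05 as well. Over all 12826 genes tested 4 were called (0.0312%), and 16.3% had an unadjusted p under 0.05. An exact permutation test called none of the genes either, against 14 of 25052 genes above the lowest value in at least 1 tumor (0.0559%), with 10.2% under 0.05 unadjusted. No gene of the 8 had genotype ranges free of overlap, as did 0.0156% of the genes tested. The adjusted p of limma ranged from 0.328 for Nqo1 to 0.985 for Ahrr. In a bulk tumor, fewer cells of a type and less RNA per cell cannot be told apart.

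The precision of that comparison differed widely between the genes. For Arnt the mean of Rag2-/- minus Rag2+/- tumors was 0.052 ± 0.096 (SE) with a 95% interval from −0.15 to 0.25. For Ahr it was 0.32 ± 0.19 with an interval from −0.077 to 0.71, and 10 of 11 Rag2-/- tumors lay above the Rag2+/- median (limma adjusted p = 0.359). Tiparp differed by 0.24 ± 0.22, from −0.23 to 0.70, and by 0.0091 without the 4 tumors of low proliferation list mean. The intervals of Cyp1b1, Ahrr and Cyp1a1 were wider. Cyp1b1 differed by 0.23 ± 0.51, from −0.83 to 1.29, and Ahrr by 0.021 ± 0.61, from −1.26 to 1.30. Without S53 the Cyp1b1 difference turned to −0.18. Cyp1a1 differed by −0.81 ± 0.99, with an interval from −2.87 to 1.26, the widest of the 8. It was −0.34 without S56 and −1.51 without S53, and values without S43, S59 or S41 (−0.39, −0.47 and −0.53) were also over 1.5 times away.

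**Figure D2:**
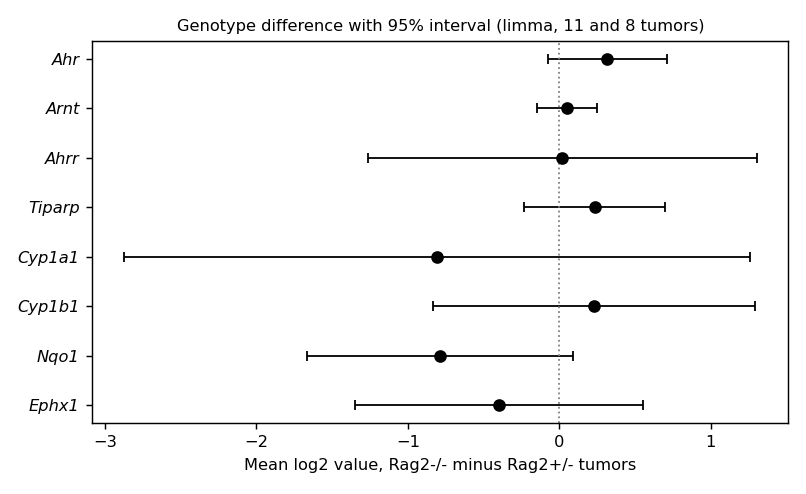
Mean log2 value in the 11 Rag2-/- tumors minus that in the 8 Rag2+/- tumors for the 8 genes tested, with 95% intervals from limma on the horizontal axis. The interval of each gene spans 0, and the widest, that of Cyp1a1, runs from −2.87 to 1.26.

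The 3 genes with lower means in Rag2-/- tumors were Nqo1, Cyp1a1 and Ephx1. Nqo1 was lower by a mean log2 difference of −0.79 ± 0.42 (SE), with 7 of 8 Rag2+/- tumors above the Rag2-/- median (exact permutation p = 0.0989 unadjusted, adjusted p = 0.520). Ephx1 differed by −0.40 ± 0.46, with −0.14 without S60, −0.22 without S59 and −0.65 without S53. With the skeletal muscle list mean as a covariate the differences were 0.076 for Nqo1, 0.86 for Cyp1a1 and 0.33 for Ephx1, that is, of the opposite sign. Leaving out the 4 tumors of low proliferation list mean gave 0.16 for Cyp1a1, 0.16 for Ephx1 and −0.32 for Nqo1.

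The wider pathway, 47 genes in 4 lists, showed the same count. Of the 36 that passed the filter, limma called none at an adjusted p under 0.05. At an unadjusted p under 0.05 there were 7 (19.4%), against 16.3% of all genes. The median difference of the 36 was 0.077, against 0.062 over all genes tested. Of the receptor complex and its partners, 13 of 14 were tested. The largest differences on that list were −0.67 ± 0.45 (SE) for Epas1, the hypoxia factor HIF-2α that also pairs with ARNT, and 0.42 ± 0.26 for its relative Hif1a. The chaperone Hsp90ab1 was abundant in every tumor, at 8.63 to 10.09, and Arnt2, the neural relative of Arnt, was below the filter.

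Of 11 other receptor targets 6 were tested, and the 2 largest differences among them follow. Serpinb2, a protease inhibitor, differed by −0.94 ± 0.80 (SE) and Ugt1a6a, a glucuronosyltransferase that clears phenols, by 0.79 ± 0.33. Ugt1a6a shares its 3′ exons with other Ugt1a genes, which makes its value uncertain. Aldh3a1, an aldehyde dehydrogenase induced with Cyp1a1 in epithelia, reached 1.86 in 1 tumor and was below the filter by its mean. Il22 did not exceed −2.24 in any tumor. Of 15 genes of hydrocarbon metabolism 14 were tested. The electron donor of the P450 enzymes, Por, was present at 4.34 to 7.04. Among those tested the largest differences were those of the glutathione transferases Gstp2, −1.94 ± 0.88, and Gsta4, −0.67 ± 0.30 (limma adjusted p = 0.303 for Gsta4), and Gstp2 shares most of its sequence with Gstp1, so that reads may be split between them. The kynurenine pathway makes tryptophan products that also bind the receptor, and 3 of its 7 genes were tested. Kmo differed by 0.59 ± 0.27 and Il4i1 by −0.58 ± 0.35, while Ido1 reached 3.14 in 1 tumor and averaged −1.77 in Rag2-/- and −1.47 in Rag2+/- tumors.

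Whether the genes moved together was then examined across the 19 tumors, over the 28 pairs of the 8 genes above the lowest value in more than 10 tumors. The p-values of this section are from 100000 permutations of the tumors, adjusted over the 28 pairs. Of the pairs 7 were called, and each was positive and lay within the group Ahrr, Cyp1a1, Cyp1b1, Nqo1 and Ephx1. How many pairs of other genes would be called in these tumors was not tested. By rho Ahrr and Nqo1 also passed the threshold (0.595, adjusted permutation p = 0.0394). Ahr, Arnt and Tiparp were in none of the 7. For Ahr this depended on the setting. For Ahr the values were r = 0.45 with Ahrr (adjusted permutation p = 0.163), 0.44 with Cyp1b1 (0.166) and 0.13 with Cyp1a1 (0.741). Without S50, r was 0.564 with Ahrr and 0.558 with Cyp1b1 (adjusted permutation p = 0.0446 for both), and without S59 it was 0.590 with Ahrr (0.0416). Ahr and Ephx1, at r = 0.310 over the 19 tumors (adjusted permutation p = 0.423), had r = 0.676 (0.0272) without the 4 tumors of low proliferation list mean, 0.621 (0.0265) with the muscle list regressed out and 0.738 (0.00364) with the fibroblast list regressed out. With the fibroblast list regressed out Ahr and Ahrr had r = 0.614 (0.0211).

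Ahrr and Cyp1b1 were the most closely related pair. Pearson's r was 0.848 (permutation p = 1e-05, the smallest that 100000 permutations can give, adjusted p = 0.00028), and Spearman's rho was 0.770 (permutation p = 0.00017, adjusted p = 0.00159). Within the genotypes r was 0.871 in the 11 Rag2-/- and 0.839 in the 8 Rag2+/- tumors. Without S41 and S53, the 2 tumors farthest from the median of Ahrr, r was 0.730. Of the 12825 other genes tested, Cyp1b1 was the closest to Ahrr and Ahrr the closest to Cyp1b1. The pair remained past the threshold in 31 of 31 alternatives, with coefficients from 0.770 (Spearman's rho) to 0.940, including those with the muscle (0.848), adipocyte (0.858) or fibroblast (0.868) list mean regressed out of both genes.

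**Figure D3:**
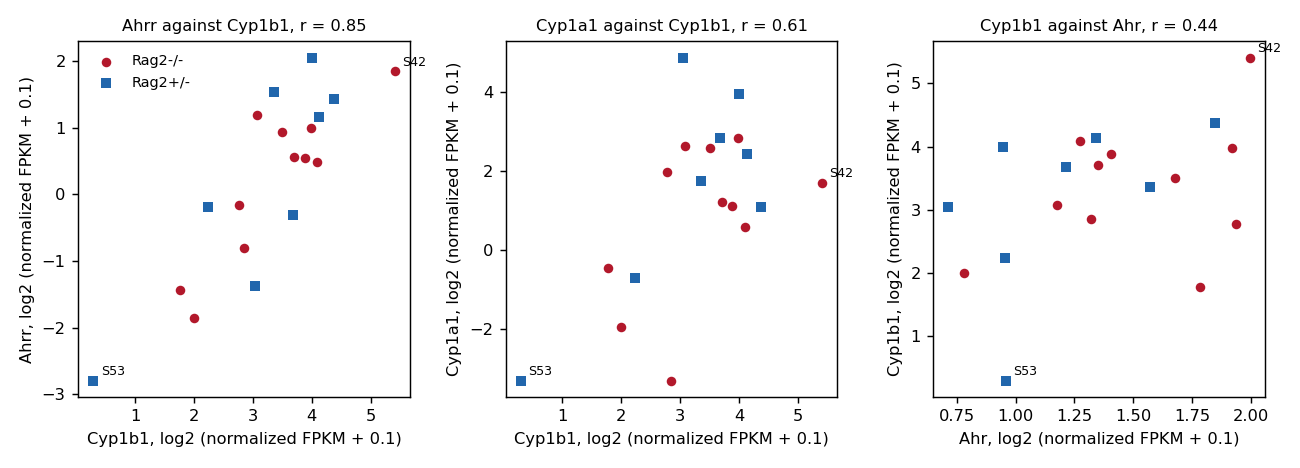
Each point is 1 tumor, Rag2-/- as circles and Rag2+/- as squares, with log2 values of normalized FPKM plus 0.1 on both axes. Ahrr follows Cyp1b1 from S53, the lowest for both, to S42 (r = 0.85); Cyp1a1 lies low where Cyp1b1 is lowest and otherwise spreads widely (r = 0.61), and Cyp1b1 against Ahr is looser (r = 0.44).

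Cyp1a1 tracked the other CYP1 gene less closely. Its r with Cyp1b1 was 0.608 (permutation p = 0.00596, adjusted p = 0.0278), but rho was 0.392 (permutation p = 0.0983, adjusted p = 0.229), and without S43 and S53, in which Cyp1a1 was at the lowest value, r was 0.439. Leaving out S53 or S41 alone ended the call (adjusted permutation p = 0.256 and 0.0690). So did adding 1 in place of 0.1 before the log (r = 0.478, adjusted permutation p = 0.153) and regressing out the adipocyte list (r = 0.556, adjusted permutation p = 0.129). Among the 12825 other genes, Cyp1b1 took place 1695 by likeness to Cyp1a1, and Cyp1a1 took place 39 by likeness to Cyp1b1. Cyp1a1 and Ahrr had r = 0.594 (permutation p = 0.00742, adjusted p = 0.0297) and rho = 0.472 (permutation p = 0.0429, adjusted p = 0.172), and without S41 and S53 r was 0.322. Leaving out S41, S53 or S59 alone ended the call (adjusted permutation p = 0.0883, 0.256 and 0.0619), whereas r was 0.769 within the 15 tumors of higher proliferation list mean (adjusted permutation p = 0.0168). The call also ended with 1 added before the log (r = 0.447, adjusted permutation p = 0.165) and with the adipocyte list regressed out (r = 0.407, adjusted permutation p = 0.263). By genotype r was 0.783 in Rag2-/- tumors (permutation p = 0.00544) and 0.475 in Rag2+/- tumors (exact permutation p = 0.237).

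Cyp1a1, Nqo1 and Ephx1 were called with each other in all 3 pairs. Cyp1b1, the other CYP1 gene with values, was called with neither Nqo1 (r = 0.220, adjusted permutation p = 0.601) nor Ephx1 (r = 0.501, adjusted permutation p = 0.0987). Nqo1 and Ephx1 had r = 0.758 (permutation p = 0.0002, adjusted p = 0.0028) and rho = 0.798 (permutation p = 7e-05, adjusted p = 0.00154). Cyp1a1 and Ephx1 had r = 0.700 (permutation p = 0.00078, adjusted p = 0.00728) and rho = 0.773 (permutation p = 0.00011, adjusted p = 0.00154). Cyp1a1 and Nqo1 had r = 0.631 (permutation p = 0.0036, adjusted p = 0.0202) and rho = 0.693 (permutation p = 0.00106, adjusted p = 0.00594). Without the 2 farthest tumors these stood at 0.702, 0.671 and 0.576. Within the 15 tumors of higher proliferation list mean they were 0.673, 0.732 and 0.585, with adjusted permutation p of 0.0272, 0.0172 and 0.0607. With the skeletal muscle list regressed out of both genes they were 0.483, 0.439 and 0.035, with adjusted permutation p of 0.115, 0.152 and 0.910. With the adipocyte list regressed out Cyp1a1 was no longer called with Ephx1 (r = 0.494) or Nqo1 (r = 0.482, adjusted permutation p = 0.196 for both), and with the fibroblast list regressed out it was no longer called with Nqo1 (r = 0.344, adjusted permutation p = 0.261). In the 15 tumors of the study's figure data, a different set, Cyp1a1 and Nqo1 were not called either (r = 0.560, adjusted permutation p = 0.109). Ephx1 was also related to Ahrr, with r = 0.675 (permutation p = 0.00156, adjusted p = 0.0109) and rho = 0.712 (permutation p = 0.00105, adjusted p = 0.00594), and r = 0.547 without S41 and S53, but with the adipocyte list regressed out it was not called (r = 0.464, adjusted permutation p = 0.196). Many other genes were as close to these. Of the 12825 other genes tested, 15.1% had an r with Nqo1 at least as high as Ephx1 did, and 22.1% as Cyp1a1 did. With Cyp1a1 the shares were 4.48% for Ephx1 and 11.2% for Nqo1. With Ephx1 they were 3.17% for Nqo1, 7.35% for Cyp1a1 and 9.43% for Ahrr, and with Ahrr 0.476% for Ephx1.

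Levels of cell type markers in the same tumors were set beside these genes, as 56 relations of 8 genes with the mean log2 value of 7 lists, adjusted over the 56. Of these 18 were called by Pearson's r and 12 by rho over the 19 tumors, and 9 by r within the 15 tumors of higher proliferation list mean. Without the proliferation list 15 of 48 were called by r over the 19 tumors. How many other genes are related to the same lists was not tested, so the counts are not particular to these genes. Nqo1 rose with the skeletal muscle list, whose defining genes Acta1, Ckm and Mb were above the lowest value in all 19 tumors, with r = 0.890 (adjusted permutation p = 0.00028) and rho = 0.819 (adjusted permutation p = 0.00056). Within the 15 tumors of higher proliferation list mean that r was 0.832 (adjusted permutation p = 0.00252), and within genotypes it was 0.862 in Rag2-/- and 0.876 in Rag2+/- tumors. Since 4 tumors stood apart on the proliferation list, relations with it were taken within the other 15. There Ephx1 had r = −0.876 (adjusted permutation p = 0.00168), Cyp1a1 −0.745 (0.0211) and Nqo1 −0.682 (0.0320), so that each was lower in tumors with more proliferation RNA.

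Ephx1 rose with the adipocyte list, at r = 0.807 (adjusted permutation p = 0.00037) and rho = 0.823 (adjusted permutation p = 0.00056), and r was 0.841 in Rag2-/- and 0.943 in Rag2+/- tumors. That list ran from −1.88 in S53 to 9.05 in S46, and Adipoq, its defining gene, was at the lowest value in 2 tumors. Cyp1a1 was related to the skeletal muscle list (r = 0.696, adjusted permutation p = 0.00672; rho = 0.722, adjusted permutation p = 0.00635) and to the neutrophil list of S100a8, S100a9, Cxcr2 and Retnlg (r = 0.671, adjusted permutation p = 0.0116; rho = 0.649, adjusted permutation p = 0.0169). Within the 15 tumors the relation with the neutrophil list was 0.702 (adjusted permutation p = 0.0237), and that with the skeletal muscle list was 0.542 and no longer called (adjusted permutation p = 0.159). By genotype, over all tumors, the relation with the skeletal muscle list was 0.477 in the 11 Rag2-/- and 0.908 in the 8 Rag2+/- tumors. Cyp1a1 was also called with the adipocyte list (r = 0.570, adjusted permutation p = 0.0390; rho = 0.712, adjusted permutation p = 0.00672) and, with the opposite sign, the fibroblast list (r = −0.567, adjusted permutation p = 0.0390; rho = −0.691, adjusted permutation p = 0.010). Within the 15 tumors neither was called by r, at 0.577 with the adipocyte list (adjusted permutation p = 0.116) and −0.333 with the fibroblast list (adjusted permutation p = 0.441). Nqo1 had r = −0.848 with the fibroblast list (adjusted permutation p = 0.00056), and −0.208 within the 15 tumors (adjusted permutation p = 0.626). Ephx1 was called with the skeletal muscle list (r = 0.668, adjusted permutation p = 0.0116), which was lost within the 15 tumors (r = 0.506, adjusted permutation p = 0.173), and with the neutrophil list (r = 0.621, adjusted permutation p = 0.0194), which was kept (r = 0.749, adjusted permutation p = 0.0182). With the macrophage list Ephx1 was called within the 15 tumors only (r = 0.690, adjusted permutation p = 0.0252, against r = 0.261 over the 19). There rho was 0.5 (adjusted permutation p = 0.206), and without S46 and S55 r was 0.399. The neutrophil list was also related to Ahrr (r = 0.615, adjusted permutation p = 0.0235; rho = 0.602, adjusted permutation p = 0.0339), though without S47 and S53 that r was 0.450. Within the 15 tumors the relation of Ahrr with the neutrophil list was kept (r = 0.679, adjusted permutation p = 0.0320). Ahrr with the adipocyte list (r = 0.554, adjusted permutation p = 0.0418) and Ephx1 with the fibroblast list (r = −0.566, adjusted permutation p = 0.0390) were called over the 19 tumors and not within the 15 (adjusted permutation p = 0.219 and 0.472). The lists are not independent of each other, since over the same 19 tumors the proliferation list had r = 0.929 with the fibroblast list and −0.842 with the skeletal muscle list, the fibroblast and skeletal muscle lists had −0.741, and the adipocyte and neutrophil lists 0.676. The part of each cell type in the level of these genes was not tested.

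**Figure D4:**
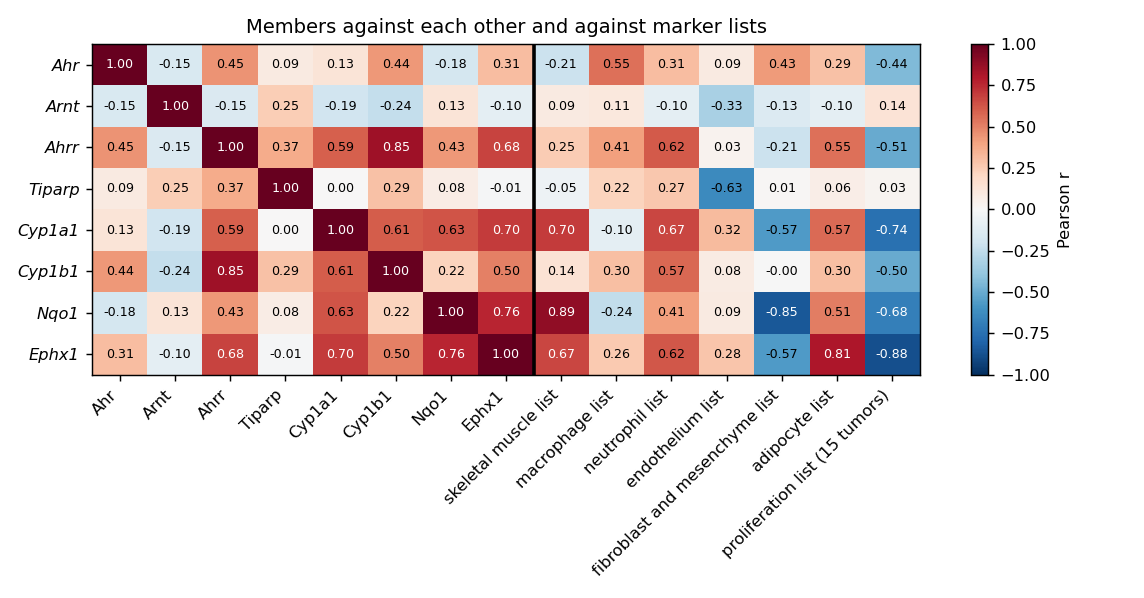
Pearson's r between the 8 genes with values (rows), with each other (left of the line) and with the mean log2 value of 7 marker lists (right of the line), over 19 tumors, or 15 for the proliferation list. Ahrr and Cyp1b1 (0.85) form the closest pair, Nqo1, Ephx1 and Cyp1a1 share positive values with the skeletal muscle list (0.89, 0.67 and 0.70), and Arnt lies between −0.33 and 0.25 against all others.

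**Figure D5:**
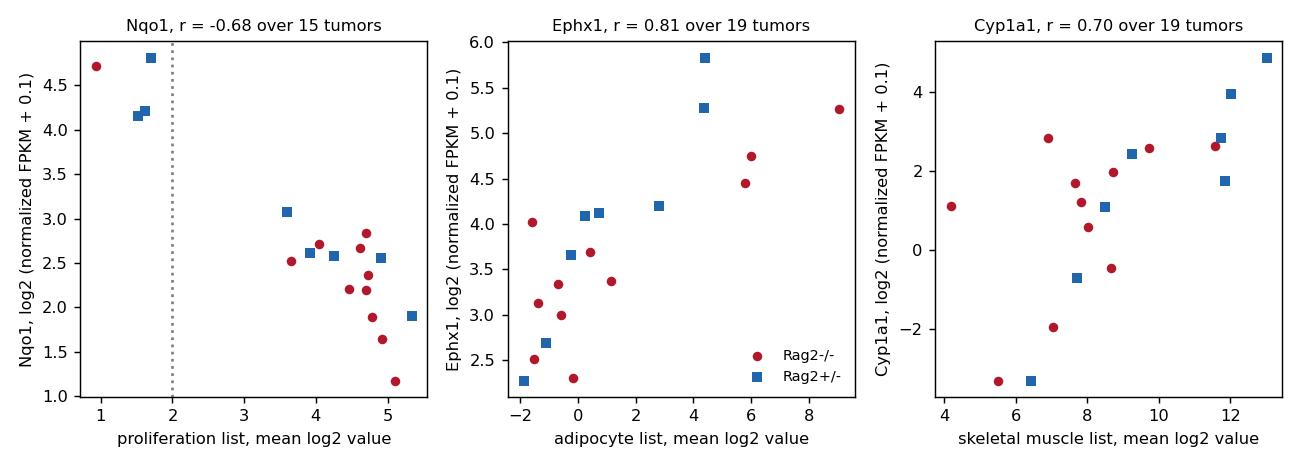
Each point is 1 tumor, Rag2-/- as circles and Rag2+/- as squares, with the mean log2 value of a marker list on the horizontal axis and the log2 level of a gene on the vertical axis. The 4 tumors left of the dotted line at 2 in the proliferation panel hold the 4 highest Nqo1 values, Ephx1 climbs with the adipocyte list (r = 0.81), and Cyp1a1 climbs with the skeletal muscle list (r = 0.70 over 19 tumors, 0.54 within the 15).

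The genes whose pattern over the 19 tumors was most like each member were read from the 12798 tested genes with a symbol, as a description. After Cyp1b1, Ahrr was closest to F7, the coagulation factor (r = 0.827), and to the neutrophil chemokine gene Cxcl3 (0.818). After Ahrr, Cyp1b1 was closest to Acvrl1, a receptor of the TGF-β family (0.748), and to the chemokine receptor gene Cxcr2 (0.720), a gene of the neutrophil list. Cyp1a1 was closest to the hydrolase gene Cmbl (0.862), the glutathione transferase gene Gstm4 (0.853) and the epoxide hydrolase gene Ephx2 (0.845). Ephx1 was closest to Gas6 (0.915), Cdk18 (0.915) and the glutathione transferase gene Gstm1 (0.912). Nqo1 was closest to Vezt (0.952), to Sqstm1, which encodes the autophagy receptor p62 (0.947), and to Zfand3 (0.946).

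The 3 genes outside the called pairs had other neighbors. Ahr was closest to the sphingosine phosphate receptor gene S1pr3 (0.864), Srpx (0.816) and Cpt1a, which encodes the carnitine transferase of fatty acid oxidation (0.802). Tiparp was closest to the syndecan gene Sdc4 (0.778), the transcription factor gene Nfil3 (0.743) and the decoy interleukin receptor gene Il1r2 (0.727). Arnt, the steadiest of the 8 genes with values, had the weakest neighbors, Gm29562 (0.646), the kinase gene Clk2 (0.644) and Slc25a30 (0.639).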

How the data were processed

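RNA sequencing values of 19 tumors were used, grouped by the genotype in the labels (11 Rag2-/-, 8 Rag2+/-). Per the study's methods, the authors prepared NEBNext Ultra II libraries, aligned paired reads to mouse B38 with the Omicsoft aligner in Array Studio, allowing at most 2 mismatches, quantified Ensembl R86 genes, normalized FPKM to the upper quartile and deposited them on a log2 scale; the lowest value shows that 0.1 was added. The submitters' processing notes instead list Trimmomatic 0.36, STAR and HTSeq, with which, per the study's methods, reads were trimmed, aligned to mm10 and counted for its differential expression analysis, so which tools made the deposited values is not settled here. Whether counting used strand is not given in the sources used here. Because the values are normalized, tests for counts were left aside. The table held 0 columns without a sample.

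Symbols came from a gene table (48349 of 48795 identifiers matched) and positions from GENCODE on GRCm38. Genotypes were compared with limma 3.58.1 (R 4.3.3, intensity trend, no covariate) over genes with a mean log2 value above 0, with Benjamini-Hochberg adjustment over all of them at 0.05, and with a two-sided exact permutation test over all 75582 splits (smallest p 2.65e-05). Relations were tested with 100000 permutations, two-sided. Scripts were tested on simulated data. Depth was estimated from the value of 1 fragment, so it covers counting only; 77.3 to 89.6% of low values came out whole within 0.05. No 2 libraries held identical values. Labels do not pair tumors.

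The 9 genes, the pathway lists and the marker lists were chosen with earlier results of these data known. Named genes were the 9, the 3 closest to each, the 2 with the largest difference among the tested genes of each pathway list, and marker genes; Hsp90ab1, Arnt2, Aldh3a1, Il22, Por and Ido1 were named after their values were seen. Alternatives left out each tumor in turn, used the 15 tumors of the study's figure data, other pseudocounts (1, 0.01), filters, normalizations, variance models and covariates (skeletal muscle list, Xist). Leaving out S41, leaving out the 4 tumors of low proliferation list mean, relations within the other 15, and regressing out the adipocyte or fibroblast list were chosen after seeing the data.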

Additional observations from a re-analysis of the deposited data

How the results depend on the processing

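No paired analysis was possible because the labels give each tumor its own animal number and do not say which animals were littermates. Of the genes that passed the filter in each fit, none of the 9 and none of the pathway genes was called under any of 32 alternatives. Cyp1a2 entered no fit, and Ahr, Ahrr and Cyp1a1 did not pass the filter at a mean log2 value of 2. The 4 genes called over the whole table became 15 in the 15 tumors of the study's figure data, 14 by the exact permutation test with no filter, 34 by limma with no filter, 2 with the skeletal muscle list as covariate, and 0 by limma (1676 at an unadjusted p under 0.05) with a filter at a mean log2 value of 2; they ranged from 3 to 7 when 1 tumor was left out, 7 without S51 or S56. Genotype differences changed in sign or in size as follows, and the cause was not tested. In the 15 tumors of the figure data Arnt was −0.019 and Ahrr −0.17; Ahrr was −0.083 with a pseudocount of 1, −0.0023 with quantile normalization, and −0.41 to 0.29 when 1 tumor was left out. When 1 tumor was left out Cyp1b1 ranged from −0.18 (without S53) to 0.41, Cyp1a1 from −1.51 to −0.34 and Ephx1 from −0.65 to −0.14. With the muscle covariate Cyp1a1 was 0.86, Nqo1 0.076 and Ephx1 0.33, and without the 4 tumors of low proliferation list mean Cyp1a1 and Ephx1 were both 0.16. Ahr kept its sign in all alternatives run, as did Tiparp, whose difference of 0.24 went down to 0.061 in the 15 tumors of the figure data and 0.0091 without the 4 of low proliferation list mean. Called pairs numbered 7, with 5 to 9 when 1 tumor was left out and 2 with the adipocyte list regressed out (Ahrr with Cyp1b1, Nqo1 with Ephx1). Depth limits S41 most, where Cyp1a1 rests on about 2.07 estimated fragments, Ahrr on 4.3 and Nqo1 on 27.1. Ahrr in S53 rests on about 5.32.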

Other observations

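Ahr was related to the macrophage list (Csf1r, Adgre1, C1qa and others) at r = 0.547 (permutation p = 0.00943, adjusted p = 0.0390), but rho was 0.384 (permutation p = 0.105, adjusted p = 0.256), and without S46 and S56 r was 0.252, so that the relation rests on those 2 tumors. Tiparp was lower in tumors with more endothelial RNA (Pecam1, Cdh5, Kdr and others), at r = −0.634 (permutation p = 0.00377, adjusted p = 0.0194) and rho = −0.567 (permutation p = 0.0128, adjusted p = 0.0550), and r was −0.518 without S46 and S56 and −0.509 within the 15 tumors of higher proliferation list mean (adjusted permutation p = 0.173). Cyp1b1 had r = 0.575 with the neutrophil list (permutation p = 0.0111, adjusted p = 0.0390) and rho = 0.526 (permutation p = 0.0219, adjusted p = 0.0813), without S47 and S53 r was 0.375, and within the 15 tumors it was 0.635 (adjusted permutation p = 0.0701). Within genotypes that relation was 0.203 in the 11 Rag2-/- and 0.914 in the 8 Rag2+/- tumors, a difference that was not tested.

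Ahr and Tiparp had r = 0.088 over the 19 tumors (permutation p = 0.717, adjusted p = 0.803) and rho = 0.137 (permutation p = 0.577, adjusted p = 0.788). They had r = −0.42 in Rag2-/- tumors (permutation p = 0.194) and 0.80 in Rag2+/- tumors (exact permutation p = 0.0160). The difference between genotypes was not tested, and the p-values are unadjusted.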
